A study of Sus scrofa with 16 samples.

Results

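A set of 8 transcription factor genes, chosen as regional factors of the gut, was followed in single cells of the pig small intestine. In enterocyte-gated cells the genes split into a proximal set, a distal set and a remainder with no such split. The genes were PDX1, GATA4, GATA5, GATA6, ONECUT2, CDX1, CDX2 and OSR2, 8 of the 25880 genes listed in each matrix, taken by symbol and not by their values. In enterocyte-gated cells, ONECUT2, GATA4 and PDX1 were at 147, 76.7 and 31.0 CPM in jejunum (unique molecular identifiers, UMIs, of the gene per 1000000 of the class), and at or near 0 in both samples of ileum. OSR2 ran the other way, with 130 and 118 CPM in the 2 ileal samples and 0.293 CPM in jejunum. CDX2 was present at all 4 sites and 2.24- and 2.29-fold higher in IPP and NoPP than in jejunum. The difference stayed past 2-fold in 11 of 14 alternatives for IPP and in 13 of 14 for NoPP. It fell under 2-fold for IPP at a mitochondrial limit of 10%, among others, and for NoPP with barcodes shared with DUOD kept. Calls for PDX1 and GATA4 in both ileal samples, and for ONECUT2 and OSR2 in NoPP, were also lost under some setting. GATA6 was present throughout, and GATA5 and CDX1 were scarce.

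The vertebrate gut tube is divided along its length by transcription factors that keep their regional pattern into adult life. In mouse, Pdx1 marks the duodenum and pancreas, Gata4 holds jejunal identity against ileal identity, and Cdx2 is required for the intestinal fate of the epithelium. ONECUT2 is a cut-homeodomain factor of the liver, pancreas and upper gut, GATA5 and GATA6 are the zinc-finger relatives of GATA4 in endoderm, CDX1 is the close relative of CDX2, and OSR2 is an odd-skipped zinc-finger factor best known from palate, limb and kidney development.

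The samples were cell suspensions enriched for epithelium from female pigs of mixed breed, 7.5 weeks of age, read by droplet RNA sequencing that tags each captured RNA molecule with a UMI. IPP was ileum dissected to contain Peyer's patches, NoPP was ileum dissected to lack them, JEJ was jejunum, and DUOD was duodenum taken just past the stomach outlet. The labels list 16 titles, 4 per region, but each region has 1 matrix in which the titles cannot be told apart. Each region was therefore 1 sample, no difference could be tested, and every interval below is an exact 95% interval that covers counting error only, not differences between pigs.

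The matrices held between 44726845 and 91813234 UMIs, and 3273, 2084, 986 and 718 barcodes were kept in IPP, NoPP, JEJ and DUOD. A barcode was kept with 1000 UMIs or more over 500 genes or more, if mitochondrial UMIs made up no more than 25%. In NoPP, 121 further barcodes were left out because DUOD held 10 or more times their UMIs under the same barcode. The DUOD barcodes that were kept had a median of 4.23% as many UMIs under the same barcode in the nearest other library, against 0.219% to 0.523% for the other 3 libraries. Cells were sorted into classes by the summed UMIs of marker genes, none of which is a member. This gave 962 epithelial cells, with 250, 137, 309 and 266 in IPP, NoPP, JEJ and DUOD. Of these, 162, 34, 195 and 209 were enterocytes, the absorptive cells of the villus. The enterocytes had a median of 16063, 15942.5, 5831 and 25788 UMIs, and a median of 17.4, 13.8, 8.45 and 13.2% mitochondrial UMIs. Depth and mitochondrial share thus moved with region, and their part in the results was not tested beyond the alternatives given.

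The 8 genes were epithelial in these libraries. Between 90.5% (OSR2) and 96.6% (GATA4) of their UMIs in kept barcodes lay in the 962 epithelial cells, which were a minority of the 7061 kept barcodes. T or innate lymphoid-gated cells, which should lack them, had at most 5.05 CPM of any member in any region. Their median depth was 3555, 3508, 3521.5 and 2838 UMIs in IPP, NoPP, JEJ and DUOD.

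PDX1, a homeodomain factor of duodenum and pancreas, had 2, 0, 106 and 251 UMIs in enterocytes of IPP, NoPP, JEJ and DUOD. These counts were 0.777 CPM in IPP (0.0941 to 2.81), 0 CPM in NoPP (up to 7.35), 31.0 CPM in JEJ (25.4 to 37.5) and 48.1 CPM in DUOD (42.3 to 54.4). The order was DUOD above JEJ above both ileal samples, and the intervals of the upper 2 did not overlap each other or those of ileum. JEJ enterocytes had 0.645 times the level of DUOD enterocytes (0.509 to 0.813). IPP enterocytes had 0.025 times the level of JEJ (0.00299 to 0.0927), and NoPP enterocytes were at least 5.19-fold lower than JEJ, a bound set at 3 UMIs over the class. The same floor sets each bound below and leaves out counting error, with which the NoPP bound for PDX1 was 4.15-fold. From the sums, PDX1 was the only one of the 3 proximal factors to differ by more than 1.5-fold between JEJ and DUOD. That did not hold under every setting. Over the alternatives, the log2 ratio of JEJ over DUOD ran from -1.71 to -0.20 for PDX1 and from -0.68 to -0.08 for ONECUT2. By the mean CPM of the cells, the PDX1 log2 ratio for JEJ over DUOD was -0.99, against -0.63 from the sums.

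GATA4, the zinc-finger factor of the proximal intestine, had 0, 1, 262 and 346 UMIs in enterocytes of IPP, NoPP, JEJ and DUOD. The levels were 0 CPM in IPP (up to 1.43), 1.99 CPM in NoPP (0.0504 to 11.1), 76.7 CPM in JEJ (67.7 to 86.5) and 66.3 CPM in DUOD (59.5 to 73.7). JEJ and DUOD stood together, with overlapping intervals and a JEJ over DUOD ratio of 1.16 (0.981 to 1.36), and ileum stood apart. IPP enterocytes were at least 65.8-fold lower than JEJ enterocytes (53.1-fold with counting error), and the NoPP over JEJ ratio was 0.026 (0.000655 to 0.146). The 1 GATA4 UMI in NoPP lay in a cell of 1185 UMIs. With a mitochondrial limit of 10%, which left 8 NoPP and 101 JEJ enterocytes, the log2 ratio of NoPP over JEJ was 0.0897, against -5.27 with all enterocytes.

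ONECUT2, the cut-homeodomain factor, had 0, 0, 501 and 873 UMIs in enterocytes of IPP, NoPP, JEJ and DUOD. Its levels were 0 CPM in IPP (up to 1.43), 0 CPM in NoPP (up to 7.35), 147 CPM in JEJ (134 to 160) and 167 CPM in DUOD (156 to 179). No enterocyte of IPP or NoPP had a UMI of it, while 51.3% of JEJ enterocytes (100 of 195) and 73.2% of DUOD enterocytes (153 of 209) did. IPP enterocytes were at least 126-fold lower than JEJ enterocytes (102-fold with counting error) and NoPP enterocytes at least 24.5-fold lower (19.9-fold). Between JEJ and DUOD the ratio was 0.877 (0.784 to 0.98).

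GATA6, a zinc-finger relative of GATA4, had 121, 20, 192 and 184 UMIs, or 47.0, 39.8, 56.2 and 35.3 CPM, in enterocytes of IPP, NoPP, JEJ and DUOD. DUOD was lowest and JEJ highest, and both ileal samples lay between with intervals that overlapped both neighbours. The JEJ over DUOD ratio was 1.59 (1.3 to 1.96), and IPP over JEJ was 0.837 (0.661 to 1.06). The order of GATA6 was not stable: over the alternatives its log2 ratio ran from -0.44 to 1.42 for JEJ over DUOD, from -1.03 to 0.53 for IPP over JEJ and from -0.06 to 1.33 for IPP over NoPP.

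GATA5, another GATA factor of endoderm, was sparse, with 18, 4, 14 and 11 UMIs, or 6.99, 7.97, 4.1 and 2.11 CPM, in IPP, NoPP, JEJ and DUOD. The neighbouring regions overlapped in their intervals, and IPP over DUOD was 3.32 (1.48 to 7.77). In the barcodes of 1 to 100 UMIs, taken here as RNA released into the suspension, GATA5 was at 4.98, 8.87, 8.19 and 4.06 CPM. The enterocyte values were thus no higher than this free RNA in NoPP, JEJ and DUOD, and at this depth no regional order of GATA5 can be read from the cells.

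CDX2, the caudal homeodomain factor of intestinal fate, had 495, 99, 294 and 281 UMIs in enterocytes of IPP, NoPP, JEJ and DUOD. The levels were 192 CPM in IPP (176 to 210), 197 CPM in NoPP (160 to 240), 86.0 CPM in JEJ (76.5 to 96.5) and 53.8 CPM in DUOD (47.7 to 60.5). The 2 ileal samples could not be told apart, JEJ was below them and DUOD was lowest. IPP over JEJ was 2.24 (1.93 to 2.59), NoPP over JEJ was 2.29 (1.81 to 2.89), and JEJ over DUOD was 1.6 (1.35 to 1.89). Over the alternatives the log2 ratio of JEJ over DUOD ran from 0.18 to 0.77, against 0.68 from the sums. The difference of IPP from JEJ was not seen among cells of at most 10% mitochondrial UMIs, where the log2 ratio was -0.0843 over 14 IPP and 101 JEJ enterocytes, against 1.16 with all. By the mean CPM of the cells it was 0.99. For NoPP over JEJ it was 1.53 there, over 8 NoPP enterocytes.

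CDX1, the close relative of CDX2, was at the edge of detection, with 6, 1, 3 and 8 UMIs in enterocytes of IPP, NoPP, JEJ and DUOD. Over all 962 epithelial cells it had 41 UMIs in 39 cells. No regional difference was detectable at this depth, since every pair of regions overlapped in their intervals.

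OSR2, the odd-skipped factor, had 334, 59, 1 and 6 UMIs in enterocytes of IPP, NoPP, JEJ and DUOD. Its levels were 130 CPM in IPP (116 to 144), 118 CPM in NoPP (89.5 to 152), 0.293 CPM in JEJ (0.00741 to 1.63) and 1.15 CPM in DUOD (0.422 to 2.5). The ileal samples overlapped each other, and so did JEJ and DUOD, with a wide gap between the pairs. IPP over JEJ was 443 (79.0 to 17565), NoPP over JEJ was 402 (69.3 to 16128), and IPP over NoPP was 1.1 (0.835 to 1.48).

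**Figure D1:**
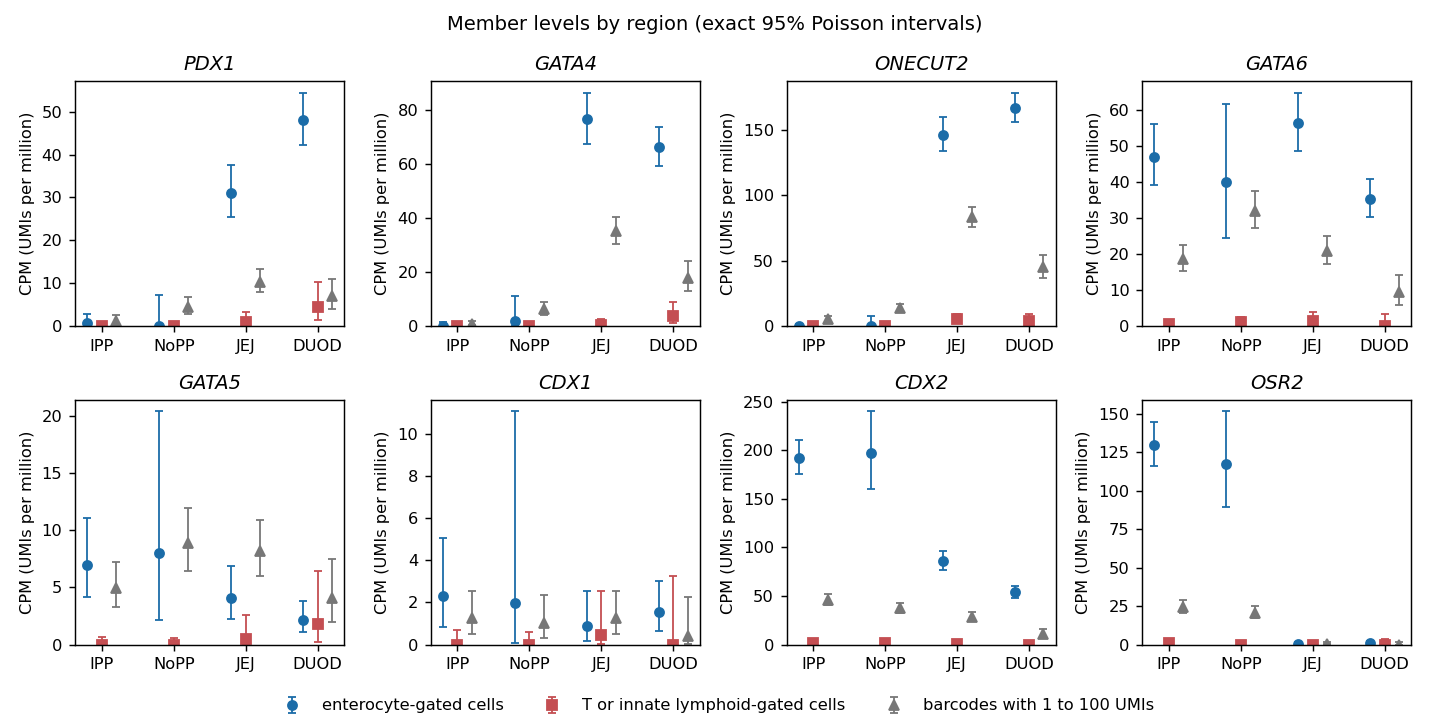
Level of each member in CPM (y axis) by region (x axis) in enterocyte-gated cells, in T or innate lymphoid-gated cells and in barcodes with 1 to 100 UMIs, with exact 95% Poisson intervals. PDX1, GATA4 and ONECUT2 are high in JEJ and DUOD enterocytes, OSR2 is high in IPP and NoPP enterocytes, and T or innate lymphoid-gated cells stay at or under 5.05 CPM.

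The share of enterocytes with a UMI followed the same split once depth was made equal. Each cell was thinned to 2500 UMIs, which left 151, 28, 144 and 179 enterocytes in IPP, NoPP, JEJ and DUOD. ONECUT2 was then found in 0, 0, 26.4 and 36.9% of them, GATA4 in 0, 0, 19.4 and 14.5%, and PDX1 in 0.662, 0, 5.56 and 12.8%. The distal factors ran opposite: OSR2 was found in 21.9, 17.9, 0 and 0%, and CDX2 in 35.1, 32.1, 16.7 and 10.1%. GATA6 stayed between 7.14 and 11.1% in all 4 regions. For GATA4 the thinned intervals of JEJ (13.3 to 26.9%) and DUOD (9.71 to 20.6%) overlapped, so no order is read between them. Before thinning, which also left out shallower cells, JEJ and DUOD had GATA4 UMIs in 46.2 and 62.7% of enterocytes. In T or innate lymphoid-gated cells thinned in the same way, no member was found in more than 1.21% of the cells of any region.

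Of 4 comparisons between regions, those of ileum with jejunum were the ones with members past 2-fold. For IPP over JEJ, 7 of the 8 members reached the minimum of 10 UMIs in both classes together. Of these, 2 were higher (CDX2 and OSR2) and 3 lower (PDX1, GATA4 and ONECUT2), where 11.4% of all 9139 genes at that minimum were higher and 15.7% lower. For NoPP over JEJ the same 2 were higher and the same 3 lower, where 11.2% of 8547 genes were higher and 13.3% lower. For JEJ over DUOD none of 7 passed in either direction, where 10.4% of 9568 genes were higher and 12.8% lower. For IPP over NoPP none of 4 passed, where 7.55% of 8120 genes were higher and 7.4% lower, and the other 4 members were under the minimum. The median log2 ratio of the members was -0.26 for IPP over JEJ and -0.50 for NoPP over JEJ, against -0.12 and -0.05 over all genes at the minimum, with genes at 0 UMIs taken at their bound. JEJ enters 3 of these comparisons, and IPP and NoPP were both set against the same JEJ cells. These counts describe 1 sample per region and are no test.

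**Figure D2:**
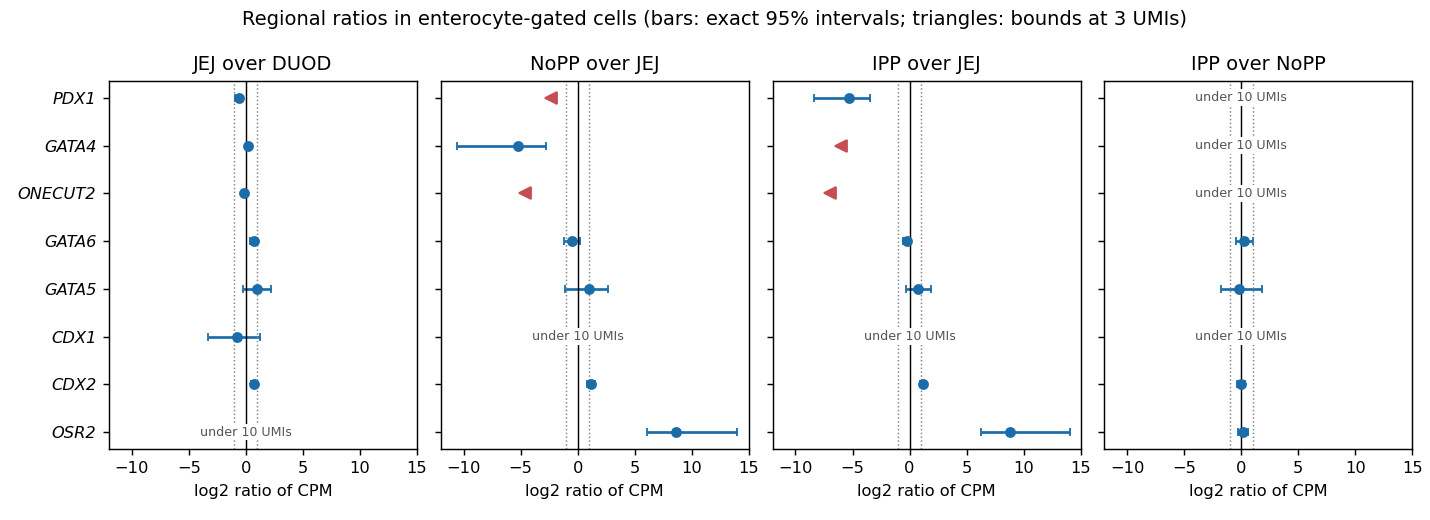
Log2 ratio of CPM (x axis) of each member (y axis) in enterocyte-gated cells for JEJ over DUOD, NoPP over JEJ, IPP over JEJ and IPP over NoPP, with exact 95% intervals, bounds at 3 UMIs as triangles and dotted lines at 2-fold. Members lie past 2-fold in both comparisons of ileum with JEJ, and in neither JEJ over DUOD nor IPP over NoPP.

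Few cells held UMIs of both proximal factors and OSR2, and this followed the split between regions. Of 138 IPP and 45 NoPP epithelial cells with an OSR2 UMI, 1 and 3 also had a UMI of PDX1, GATA4 or ONECUT2, which 5 of all 250 and 11 of all 137 epithelial cells had. In JEJ and DUOD, where 207 of 309 and 213 of 266 epithelial cells had at least 1 of the 3 proximal factors, OSR2 was found in 1 and 5 cells, of which 1 and 3 also had a proximal factor. These counts do not show that the factors exclude each other within a cell. The 3 proximal factors were often found together: 48 of 195 JEJ enterocytes and 82 of 209 DUOD enterocytes had a UMI of all 3, against none in ileum. CDX2 was found with OSR2 in 107 IPP and 22 NoPP enterocytes, and with a proximal factor in 84 JEJ and 109 DUOD enterocytes. Counted singly, CDX2 was in 138 and OSR2 in 118 of 162 IPP enterocytes, and in 29 and 22 of 34 in NoPP. In JEJ and DUOD, CDX2 was in 101 and 117 enterocytes, and a proximal factor in 118 and 169. Cells were not brought to equal depth for these counts. Whether genes met in a cell more often than their single counts imply was not tested.

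The OSR2 UMIs of DUOD epithelium were concentrated. Of 11 UMIs, 5 lay in a crypt-gated cell and 3 in an enterocyte, and neither cell had a UMI of PDX1, GATA4 or ONECUT2. That enterocyte held 586 of the 589 UMIs of FABP6, the ileal bile acid-binding protein, found in DUOD enterocytes. The other 3 DUOD cells had 1 OSR2 UMI each beside 4 to 9 ONECUT2 UMIs.

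The released RNA carried the same split of ileum from JEJ and DUOD. In barcodes of 1 to 100 UMIs, ONECUT2 was at 5.16, 13.5, 83.5 and 45.1 CPM, GATA4 at 0.712, 6.25, 35.1 and 17.9 CPM and OSR2 at 24.6, 20.8, 0.534 and 0 CPM in IPP, NoPP, JEJ and DUOD. ONECUT2 and GATA4 were both lower in DUOD than in JEJ there. In enterocytes, ONECUT2 was at 147 and 167 CPM and GATA4 at 76.7 and 66.3 CPM in JEJ and DUOD. ONECUT2 and GATA4 of the released RNA were higher in NoPP than in IPP, although NoPP enterocytes had only 1 UMI of the 3 proximal factors. In these barcodes, released RNA cannot be told apart from UMIs under barcodes shared with another library, such as DUOD. When the 121 NoPP barcodes shared with DUOD were kept, NoPP had 143 enterocytes in place of 34. The log2 ratios of NoPP over JEJ were then -0.95 for PDX1, -2.02 for GATA4, -1.75 for ONECUT2 and 0.84 for CDX2, so that PDX1 and CDX2 were no longer past 2-fold.

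Goblet cells, which make mucus, showed the divide as enterocytes did. The 43 IPP and 40 NoPP goblet cells had 0 UMIs of PDX1, GATA4 and ONECUT2, against 53.2, 73.1 and 186 CPM in 19 JEJ goblet cells. IPP goblet cells were at least 12.9-fold lower for PDX1, 17.7-fold lower for GATA4 and 45.1-fold lower for ONECUT2 than JEJ goblet cells, and NoPP goblet cells at least 9.24-, 12.7- and 32.3-fold lower. CDX2 was at 191, 219 and 66.4 CPM in IPP, NoPP and JEJ, so both ileal samples were higher, by 2.88 (1.79 to 4.86) and 3.29 (2.03 to 5.59) times. DUOD had only 2 goblet cells and was not compared.

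OSR2 and GATA6 differed between goblet cells and enterocytes of the same sample. OSR2 was at 20.6 CPM in IPP goblet cells (11.6 to 34.1) and 19.2 CPM in NoPP goblet cells (9.2 to 35.3), below the 130 and 118 CPM of the enterocytes beside them. These goblet levels were no higher than the 24.6 and 20.8 CPM of the released RNA. T or innate lymphoid-gated cells of the same samples, given below, had far less OSR2. How much released RNA the goblet cells held was not tested, so no reading of OSR2 expression is made there. GATA6 was at 140, 190 and 110 CPM in IPP, NoPP and JEJ goblet cells, above the enterocytes of each of the 3 samples with no overlap of intervals. It was found in 38 of 43, 34 of 40 and 15 of 19 of these goblet cells.

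BEST4 enterocytes, a minor absorptive class with its own ion channels, were numerous only in JEJ, with 41 cells. ONECUT2 was at 367 CPM there (287 to 461), above the 147 CPM of JEJ enterocytes, and 31 of the 41 cells had a UMI. GATA6 was at 136 CPM (89.4 to 197), also above JEJ enterocytes, with 8 of its 27 UMIs in 1 cell, while PDX1 had 1 UMI in the class, or 5.02 CPM (0.127 to 28.0). GATA4 was at 40.2 CPM (17.4 to 79.2), CDX2 at 95.5 CPM (57.5 to 149) and OSR2 at 0 (up to 18.5). In the crypt, where stem cells and dividing cells lie, 22 JEJ cells had ONECUT2 at 127 CPM, CDX2 at 137 CPM and GATA6 at 82.9 CPM, with GATA4 at 29.3 and PDX1 at 14.6 CPM and no OSR2. The released RNA of JEJ had GATA4 at 35.1, PDX1 at 10.3 and ONECUT2 at 83.5 CPM. The intervals of GATA4 and PDX1 in both classes, and of ONECUT2 in crypt cells (82.8 to 186), held these levels. T or innate lymphoid-gated cells of the same library stayed at the low levels given above. How much released RNA the cells held was not tested, so no reading of expression is made for these values. NoPP had 8 crypt-gated cells, under the minimum of 10, with 13 OSR2 UMIs, 33 CDX2 UMIs and none of the 3 proximal factors.

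**Figure D3:**
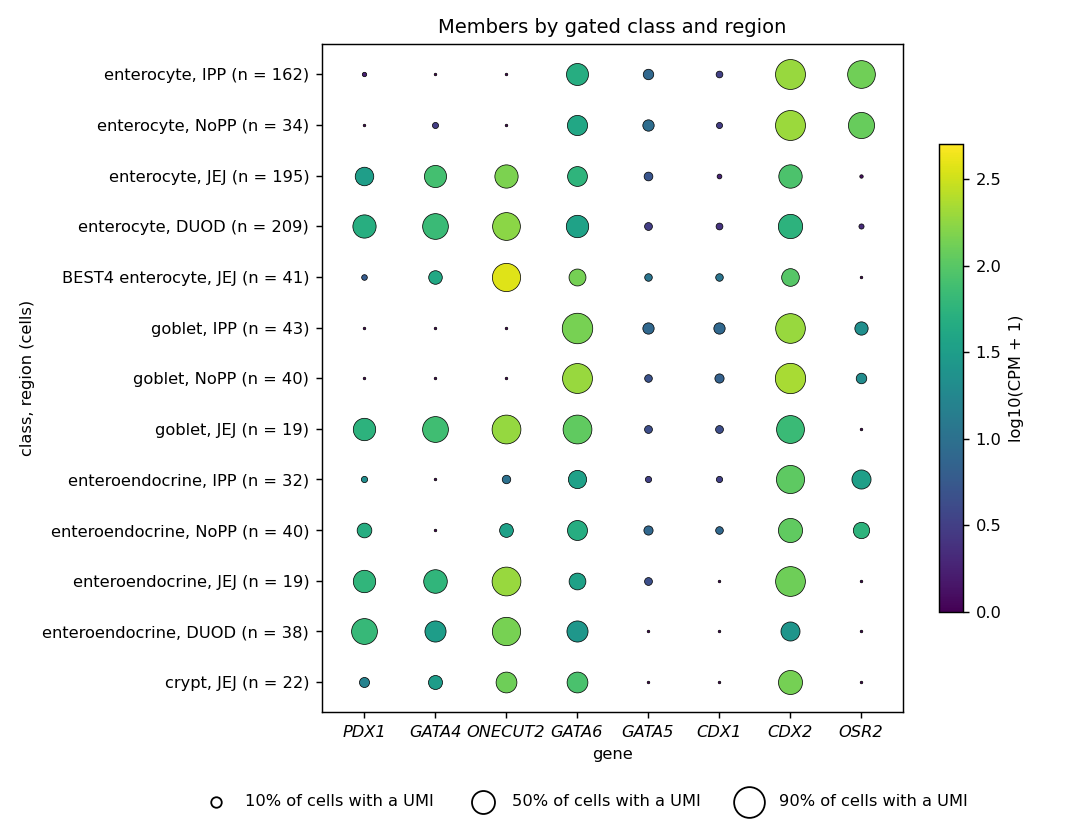
Each row is a gated class in 1 region with at least 10 cells, and each column is a member, with colour for log10(CPM + 1) and dot area for the percent of cells with a UMI. The rows of IPP and NoPP lack GATA4 but for 1 UMI, goblet cells are high in GATA6, and JEJ BEST4 enterocytes reach 367 CPM of ONECUT2.

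Enteroendocrine cells, the hormone-releasing cells of the epithelium, departed from the enterocytes in PDX1 and ONECUT2. There were 32, 40, 19 and 38 of them in IPP, NoPP, JEJ and DUOD. PDX1 was at 20.1, 47.1, 57.8 and 63.3 CPM, so NoPP overlapped JEJ and DUOD, and NoPP over JEJ was 0.815 (0.405 to 1.66). ONECUT2 was at 8.95, 33.0, 190 and 138 CPM, lower in both ileal samples: NoPP over JEJ was 0.173 (0.089 to 0.315) and IPP over JEJ was 0.047 (0.0124 to 0.127). The IPP level rested on 4 UMIs (2.44 to 22.9 CPM), an interval that held the 5.16 CPM of the released RNA. GATA4 had no UMI in the enteroendocrine cells of IPP or NoPP, against 57.8 CPM in JEJ (33.7 to 92.6) and 30.3 CPM in DUOD (19.0 to 45.8).

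The ileal PDX1 and ONECUT2 UMIs lay almost wholly in cells led by somatostatin (SST), the hormone that restrains the release of other gut hormones. All 20 PDX1 UMIs of NoPP were in 8 of its 10 SST-led cells, and all 9 of IPP were in 1 of its 2. None of the 30 other enteroendocrine cells of IPP or the 30 of NoPP had a PDX1 UMI, for which the exact upper limit was 11.6% of cells with a UMI in each, a limit on detection and not on expression. ONECUT2 was in 6 of 10 SST-led cells of NoPP with 12 UMIs and in 1 of 2 of IPP with 3 UMIs, against 1 of 30 other cells in each. The 1 such NoPP cell had 1610 UMIs, and DUOD held 979% of that number under the same barcode. Without it NoPP had 28.4 CPM of ONECUT2 in place of 33.0.

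In the proximal gut, the same genes were not limited to SST-led cells. PDX1 was in 4 of 4 SST-led cells and 5 of 15 others in JEJ, and in 7 of 9 SST-led cells and 17 of 29 others in DUOD. ONECUT2 was in 3 of 4 and 12 of 15 in JEJ, and in 9 of 9 and 20 of 29 in DUOD. The 8 JEJ cells and the 10 DUOD cells with no leading hormone had ONECUT2 at 244 and 389 CPM, and of PDX1 they had 0 and 8 UMIs. Among ileal cells led by NTS, PYY or GCG, hormones of the lower gut, none of 13 in IPP and none of 18 in NoPP had PDX1 or GATA4, while OSR2 was in 8 of 13 and 7 of 18. In NoPP the median depth was 10260.5 UMIs in SST-led cells and 11553 UMIs in the others.

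**Figure D4:**
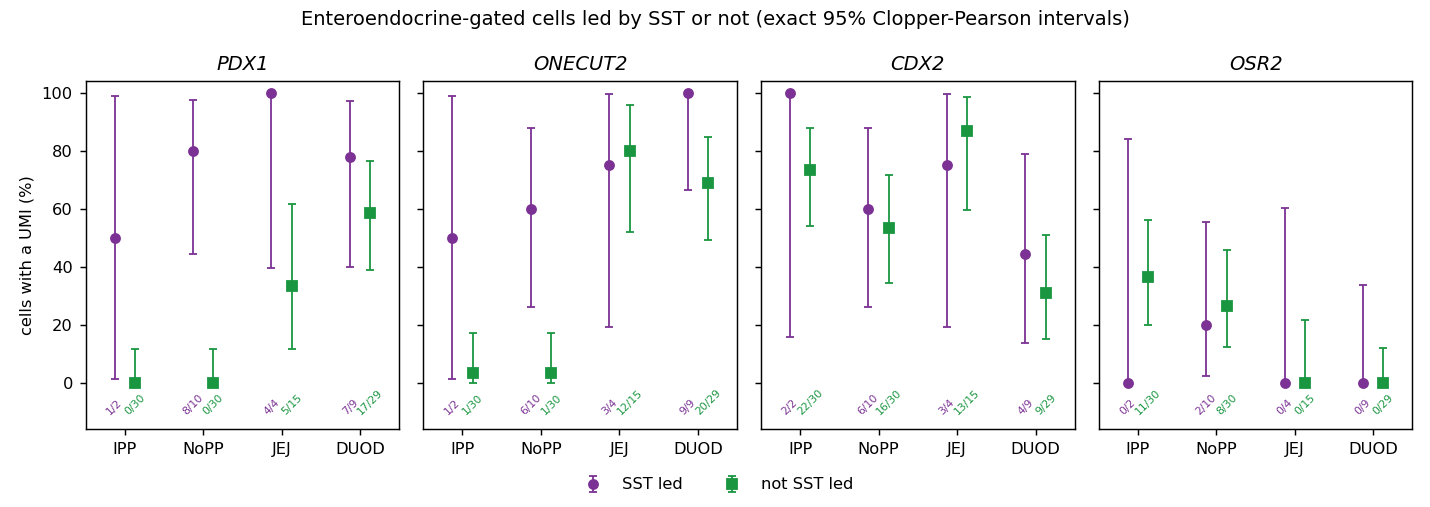
Percent of enteroendocrine-gated cells with a UMI (y axis) of PDX1, ONECUT2, CDX2 and OSR2 by region (x axis), in cells led by SST and in all others, with exact 95% Clopper-Pearson intervals and the cells with a UMI of all cells below. In NoPP, PDX1 is in 8 of 10 SST-led cells and 0 of 30 others, and in DUOD in 7 of 9 and 17 of 29.

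CDX2 and OSR2 also had their own pattern in enteroendocrine cells. CDX2 was at 105, 108, 126 and 24.8 CPM in IPP, NoPP, JEJ and DUOD, so JEJ was level with ileum and only DUOD was low. JEJ over DUOD was 5.08 (2.82 to 9.48) in enteroendocrine cells against 1.6 (1.35 to 1.89) in enterocytes, and the intervals did not overlap. JEJ and DUOD cells also differed in hormone. CCK, GIP, MLN, GHRL or GAST led 19 DUOD cells, with CDX2 at 13.7 CPM, and 2 JEJ cells, with no CDX2 UMI. In SST-led cells CDX2 was at 119 CPM in JEJ (38.6 to 277) and 20.4 CPM in DUOD (6.63 to 47.7). With no leading hormone it was at 145 (82.7 to 235) and 67.7 CPM (29.2 to 133). Both pairs of intervals overlapped. The part of hormone in the ratio of 5.08 was not tested. OSR2 was at 31.3 CPM in IPP (17.1 to 52.6) and 54.2 CPM in NoPP (34.4 to 81.3), and at 0 in the 19 JEJ and 38 DUOD cells. NoPP was at least 5.31-fold higher than JEJ and IPP at least 3.07-fold higher. The released RNA had OSR2 at 24.6 CPM in IPP, within the interval of the IPP cells, and at 20.8 CPM in NoPP, below that of the NoPP cells. T or innate lymphoid-gated cells, given below, had far less OSR2 in both samples. How much released RNA the IPP enteroendocrine cells held was not tested, so no reading of OSR2 expression is made there.

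The other genes of the same families were near absent from the epithelium. GATA1, GATA2, GATA3, ONECUT1, ONECUT3, OSR1 and CDX4 were measured, and none of the 7 reached the minimum in a comparison. Over all epithelial cells GATA3 and OSR1 had 6 UMIs each, GATA2 had 4 and the others had 0. GATA3, the GATA factor of T cells, was instead at 64.3, 71.2, 82.6 and 62.0 CPM in T or innate lymphoid-gated cells of IPP, NoPP, JEJ and DUOD, against 0, 0, 0 and 0.383 CPM in enterocytes.

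Of 19 partner factors, which bind with the members or beside them in endoderm, 13 reached the minimum for IPP over JEJ, with 5 higher and 2 lower, a median log2 ratio of 0.35, against 11.4% higher and 15.7% lower over all genes. For NoPP over JEJ 12 did, with 2 higher and 1 lower (11.2% and 13.3% over all genes), and for JEJ over DUOD 15 did, with 1 higher and 7 lower (10.4% and 12.8%). For IPP over NoPP 11 did, with 2 higher and none lower (7.55% and 7.4%). HNF4A and HNF4G, nuclear receptors of enterocyte identity, stayed within 2-fold in all 4 comparisons, as did KLF5, a factor of crypt and villus cells. KLF4, a differentiation factor, was at 337, 303, 59.7 and 299 CPM, low in JEJ enterocytes and alike in the other 3 regions.

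ZFPM1 (FOG1), a partner factor and cofactor that binds GATA factors, was at 1.17, 3.98, 31.9 and 47.7 CPM in enterocytes of IPP, NoPP, JEJ and DUOD, so IPP over JEJ was 0.0365 (0.00742 to 0.11). It was at 22.0, 36.4 and 36.5 CPM in goblet cells of IPP, NoPP and JEJ, with no such gap, and at 11.2, 37.7, 136 and 88.1 CPM in enteroendocrine cells of IPP, NoPP, JEJ and DUOD, again higher in the proximal gut. T or innate lymphoid-gated cells had ZFPM1 at 27.7, 21.5, 24.8 and 15.9 CPM.

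Of 11 genes known in mouse or cell lines as targets of these factors, 9 were matched by symbol. Among them SI, FABP6, CDH17, MUC2, SST and GIP were also marker genes of the gates. Their UMIs helped to sort the cells, so the counts below and the SI levels are not independent of the gates. For IPP over JEJ 9 reached the minimum, with 3 higher and 2 lower (11.4% and 15.7% over all genes), and for NoPP over JEJ 4 were higher and 2 lower of 9 (11.2% and 13.3%). Some of these calls were of marker genes of other classes at few UMIs. For NoPP over JEJ they were SST (5 against 8 UMIs) and MUC2 (2 against 44, interval 0.0363 to 1.19). For IPP over JEJ they were SST (14 against 8 UMIs) and GIP (0 against 11). For JEJ over DUOD 3 were higher and 2 lower of 9 (10.4% and 12.8%), and for IPP over NoPP 1 was higher and 1 lower of 7 (7.55% and 7.4%). ADA, the adenosine deaminase of the proximal gut, had 0, 0, 151 and 457 UMIs in enterocytes of IPP, NoPP, JEJ and DUOD, so IPP was at least 37.9-fold and NoPP at least 7.39-fold lower than JEJ. SLC10A2, the bile acid importer of the ileum, was at 1074 and 697 CPM in IPP and NoPP and at 1.76 and 1.72 CPM in JEJ and DUOD. SI, the sucrase-isomaltase bound by CDX2 in cell lines, was at 1343, 1950, 1146 and 4.22 CPM, low in DUOD alone.

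The genes most alike to each member were taken over the 11 region-by-class sums with at least 20 cells, by Pearson's r of log2(CPM + 10) among 8295 genes. The sums share libraries and differ in depth, so r is a description. ONECUT2 was most like GJB1 (r = 0.95) and CYP2C42 (0.91), followed by GATA4 (0.90). GATA4 was in turn most like GJB1 (0.94), CYP2C42 (0.93) and SCARB1 (0.93). OSR2 was most like SLC13A1 (0.97), GNLY (0.94) and RNF144A (0.93), and CDX2 was most like CLDN3 (0.93), DOCK5 (0.88) and TUBA4A (0.86). GATA6 was most like ACSS2 (0.96), PGM2 (0.95) and DUSP1 (0.95), GATA5 like SLC18B1 (0.93), TMEM87B (0.89) and LYST (0.88), and PDX1 like CD81 (0.94), CD320 (0.87) and DDC (0.87).

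GNLY is a granule protein of cytotoxic lymphocytes and was among the T cell markers. The 14 measured T cell markers summed to 254, 534, 105 and 24.7 CPM in enterocytes of IPP, NoPP, JEJ and DUOD, with 1, 4, 4 and 2 of them at 0. T or innate lymphoid-gated cells had OSR2 at 1.12, 0, 0 and 0 CPM and CDX2 at 1.67, 1.25, 0.918 and 0 CPM, far below the enterocytes.

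PDX1 and CDX2 lie next to each other on their chromosome in the RefSeq annotation of the Sscrofa11.1 assembly. In enterocytes their levels ran in opposite directions along the regions. Over the 11 sums their r was -0.86, with JEJ goblet and JEJ enteroendocrine cells, 19 of each, left out of the sums. Enteroendocrine cells held both genes, with PDX1 at 57.8 and CDX2 at 126 CPM in JEJ and at 47.1 and 108 CPM in NoPP. In JEJ and DUOD enterocytes they were nonetheless present in the same class, at 31.0 and 86.0 CPM in JEJ and at 48.1 and 53.8 CPM in DUOD.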

How the data were processed

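Per the file headers, the authors deposited raw UMI counts (count) per gene and barcode made with Cell Ranger 4, and the submitters' processing notes give version 4.0.6. Genome build and annotation are not given in the sources used here. Files gave symbols for 17733 genes and the gene name table for 977 more, and 7170 had none. Cells were classed by marker UMIs per 10000 UMIs of the cell: at least 30 epithelial, at most 20 immune, then 100 for enterocytes, 500 for goblet, 100 for enteroendocrine, 15 for BEST4 and crypt and 20 for tuft cells, with 50 for T or innate lymphoid cells. An enteroendocrine cell was led by its highest hormone of at least 100 per 10000. Of the epithelial cells, 73 lay under the enterocyte threshold by a factor of 2 or less. UMIs were summed per class and region and divided by the class total (CPM). Ratios have exact intervals from Clopper-Pearson bounds on Poisson counts, which cover counting error only. The floors of 3 UMIs or cells leave counting error out. A call was a CPM ratio of at least 2-fold with 10 UMIs in both classes together, and its script was tested on simulated data. Doublets were left in, and a doublet score was an alternative. All members are named, the 3 genes most like each, and, per list, the 4 genes with most epithelial UMIs and those past 10-fold in enterocytes. Some genes this rule names are not reported here. The members, lists, gates and hormone groups were chosen with earlier results of these data known. Python 3.11.15, numpy 2.4.6 and scipy 1.17.1 were used.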

Additional observations from a re-analysis of the deposited data

How the results depend on the processing

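The counts of members past 2-fold were recomputed under 14 alternatives, the last of them, leaving out every barcode with more UMIs in another library, chosen after seeing the data. With a mitochondrial limit of 10%, which left 14 IPP, 8 NoPP, 101 JEJ and 73 DUOD enterocytes, NoPP over JEJ had 1 higher and 0 lower, IPP over JEJ had 1 higher, and IPP over NoPP had 1 lower. At 40%, IPP over NoPP had 1 lower. With shared barcodes kept, NoPP over JEJ had 1 higher and IPP over NoPP had 3 lower. By the mean CPM of the cells, JEJ over DUOD had 1 higher and 1 lower and IPP over JEJ had 1 higher. Thinned to 1000 UMIs a cell, JEJ over DUOD had 1 higher and 1 lower, NoPP over JEJ 1 higher and 0 lower, IPP over JEJ 1 higher and IPP over NoPP 1 higher. The other 96 counts stayed within 1.5 times. Such a count need not hold the same members: for IPP over JEJ at 10%, PDX1 gave no value. Of the members' log2 ratios that passed 2-fold, 2 changed sign, both at 10% mitochondrial UMIs: GATA4 in NoPP over JEJ (0.0897) and CDX2 in IPP over JEJ (-0.0843). In 14 cases, at 10% or thinned, a count of 0 gave no value. Over the alternatives, IPP over JEJ ran from -6.22 to -0.15 for PDX1, from -7.62 to -0.53 for GATA4, from -8.56 to -1.16 for ONECUT2, from -0.0843 to 1.31 for CDX2 and from 3.21 to 9.81 for OSR2. NoPP over JEJ ran from -3.96 to -0.95 for PDX1, from -5.31 to 0.0897 for GATA4, from -6.20 to -0.29 for ONECUT2, from 0.84 to 1.53 for CDX2 and from 2.52 to 9.34 for OSR2. Thus calls for PDX1, GATA4 and CDX2 in both, and for ONECUT2 and OSR2 in NoPP over JEJ, were lost under some setting. At 10%, OSR2 had no UMI in NoPP or JEJ enterocytes, so its NoPP over JEJ range leaves that setting out. With no minimum beyond 1 UMI, the shares of all genes past 2-fold were 11.04% higher and 10.8% lower for JEJ over DUOD, 16.3% and 9.78% for NoPP over JEJ, 12.1% and 13.5% for IPP over JEJ and 5.28% and 11.4% for IPP over NoPP. The causes were not tested. No paired analysis was possible because the 4 titles of a region share 1 matrix, and for the same reason no replicate could be left out. NoPP rests on 34 enterocytes, and JEJ on 19 goblet and 19 enteroendocrine cells.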
